A study of Mus musculus with 24 samples.

Results

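The synaptic vesicle release machinery was followed here as 65 genes of a mouse brain microarray, each measured by 1 transcript cluster among 19572 clusters with a gene name. The members were taken by symbol: 16 synaptotagmins (Syt), 7 vesicle-associated membrane proteins (Vamp), 13 syntaxins (Stx), 7 syntaxin-binding proteins (Stxbp), 5 Snap genes, 4 complexins (Cplx), 3 synapsins (Syn), 3 vesicle glycoproteins of the SV2 family, 4 RIM genes (Rims) and 3 Munc13 genes (Unc13). The rule used symbols alone, although it was set with earlier results of these data known. Total RNA came from 3 brain regions, namely cerebellum, hippocampus and cerebral cortex, taken from wild-type mice (WT) and from mice whose liver lacks glutamine synthetase (KO), an enzyme that binds ammonia to glutamate. Each of the 6 combinations of region and genotype held 4 arrays, labelled as animals 1 to 4, so the study had 24 arrays. The labels state neither strain, age nor sex, and they do not name the driver that made the deletion liver-specific. The title of the series sets the question, which is how hyperammonemia alters transcripts of the brain.

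Neurotransmitter is released when calcium entering a nerve terminal makes docked vesicles fuse with the plasma membrane. Fusion is driven by SNARE proteins: a vesicle SNARE (Vamp) zips up with target SNAREs (a syntaxin and a SNAP-25 protein) while Munc18 proteins hold the syntaxin. Munc13 and RIM proteins of the active zone prime the vesicle, complexins clamp the partly zipped complex, and synaptotagmins sense the calcium. Synapsins tether vesicles in reserve and SV2 proteins are carried in the vesicle membrane. Most of these proteins exist as several paralogs, and neurons of the forebrain and of the cerebellum are known to use different ones. The same symbols also take in relatives that work in the Golgi, endosomes, lysosomes or outside neurons, such as Stx6, Stx12, Stx17, Vamp8 and Snap91, an adaptor of endocytosis. Stxbp3-ps is a pseudogene copy of Stxbp3, so signals of this pair may be shared.

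Promoter windows of 250 bases ending just before the annotated start were read from RefSeq on the GRCm38.p6 build for 51 of the 65 members, by symbol. The windows were rich in C and G, with a median GC content of 62.0% and a ratio of observed to random CpG dinucleotides of 0.68, against 52.0% and 0.38 over all 27025 genes of that table. A GC box (GGGCGG on either strand) stood in 34 of 51 windows (66.7%) and in 32.9% of all windows, whereas a TATA box (TATAAA, either strand) stood in 2 of 51, those of Stx3 and Sv2b, and in 13% of all. The palindromic cAMP response element TGACGTCA was found for Stxbp3 and Syn1 (3.92% of members, 1.62% of all), and TTCAGCACC, the first part of the RE1 element bound by the repressor REST, for Syn1 alone (1.96% of members, 0.285% of all). A match of letters is a description and shows neither binding nor a cause. The windows below are 5, those of 3 genes called higher and 1 called lower in the cerebellum, and that of Syn1, which held 2 of the rarer motifs. Capitals mark the motifs named for each, and no marked motif overlapped another.
Syt2 (chr1:134646362-134646611, plus strand, GC boxes on the minus strand 93, 68 and 55 bases before the start): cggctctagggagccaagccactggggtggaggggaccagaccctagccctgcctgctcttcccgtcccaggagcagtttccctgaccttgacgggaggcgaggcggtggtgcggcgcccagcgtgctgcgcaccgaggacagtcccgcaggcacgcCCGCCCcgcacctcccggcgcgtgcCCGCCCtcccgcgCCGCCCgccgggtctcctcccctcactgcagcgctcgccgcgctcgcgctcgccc
Syt9 (chr7:107370540-107370789, plus strand, GC boxes 120, 90 and 66 bases before the start): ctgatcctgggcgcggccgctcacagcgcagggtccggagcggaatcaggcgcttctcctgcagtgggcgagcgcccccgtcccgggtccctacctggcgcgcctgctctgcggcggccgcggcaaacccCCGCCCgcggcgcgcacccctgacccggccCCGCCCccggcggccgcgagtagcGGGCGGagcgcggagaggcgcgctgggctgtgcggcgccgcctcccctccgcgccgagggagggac
Unc13c (chr9:73969038-73969287, minus strand, GC box 208 bases before the start): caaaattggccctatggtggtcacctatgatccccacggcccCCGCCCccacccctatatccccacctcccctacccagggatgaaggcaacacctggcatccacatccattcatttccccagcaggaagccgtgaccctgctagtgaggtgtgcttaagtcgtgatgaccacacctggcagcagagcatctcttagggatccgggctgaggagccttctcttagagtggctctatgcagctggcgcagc
Stx1a (chr5:135023232-135023481, plus strand, GC box 74 bases before the start): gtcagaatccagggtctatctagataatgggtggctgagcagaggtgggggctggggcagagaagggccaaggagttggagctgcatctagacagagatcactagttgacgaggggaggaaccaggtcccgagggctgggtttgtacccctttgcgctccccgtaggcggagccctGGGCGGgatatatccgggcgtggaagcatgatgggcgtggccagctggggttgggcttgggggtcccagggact
Syn1 (chrX:20920919-20921168, minus strand, RE1 part 232 and cAMP response element 159 bases before the start): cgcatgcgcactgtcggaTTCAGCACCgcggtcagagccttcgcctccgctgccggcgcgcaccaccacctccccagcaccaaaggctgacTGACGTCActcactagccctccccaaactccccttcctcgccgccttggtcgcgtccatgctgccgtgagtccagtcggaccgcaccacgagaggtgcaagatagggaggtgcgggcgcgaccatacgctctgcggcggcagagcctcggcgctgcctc
Of the other genes that were at least 2-fold lower in the cerebellum, Syt1, Syt16 and Unc13b had a window with a GC box, and Stxbp6 and Cplx3, like Syn1, had one without. For Syt2 the table lists 2 starts, and the window is that of the first listed.

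The values are log2 intensities as deposited, and a difference of 1 between groups is a 2-fold difference of those values. Group means are given with standard deviations over 4 animals and differences with standard errors of the limma fit, and adjusted p-values are Benjamini-Hochberg values over all 19572 rows. Region markers were in place: the mean of 11 granule cell genes was 13.61 to 14.07 in the WT cerebellum and 8.31 to 8.63 in the other WT regions. Some arrays stood apart. Cortex KO 1 and KO 4 carried olfactory bulb genes: KO 1 had the highest value of all 8 cortex arrays for 14 of 14 bulb markers, and the mean of the list reached 12.02 in KO against 8.18 to 8.73 in WT. Cerebellum KO 3 was highest for 11 of 17 brainstem markers (mean of the list 9.61, WT 7.79 to 8.27) and had the lowest granule cell mean of the KO group (12.43). Other list means of KO 3 lay outside the WT range too. They were those of oligodendrocyte (13.76, WT 11.67 to 12.22), microglia (9.42, WT 8.45 to 8.66) and Purkinje cell genes (13.18, WT 14.54 to 15.05). Its choroid plexus mean (11.05) was the highest of the KO group but within the WT range (8.55 to 11.46). Cerebellum WT 2 was the lowest of its 8 arrays for 19 of the 65 genes (29.2%, against 23.0% of all rows), and these included Snap25, Syt1 and Syn2. Its mean over 10 choroid plexus markers was the highest of the 8 (11.46), and that over 16 neuron markers the lowest (13.15). The part of these markers in its values was not tested. Because tissue pieces were measured whole, fewer cells of a type and less RNA per cell cannot be told apart in any result below.

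**Figure D1:**
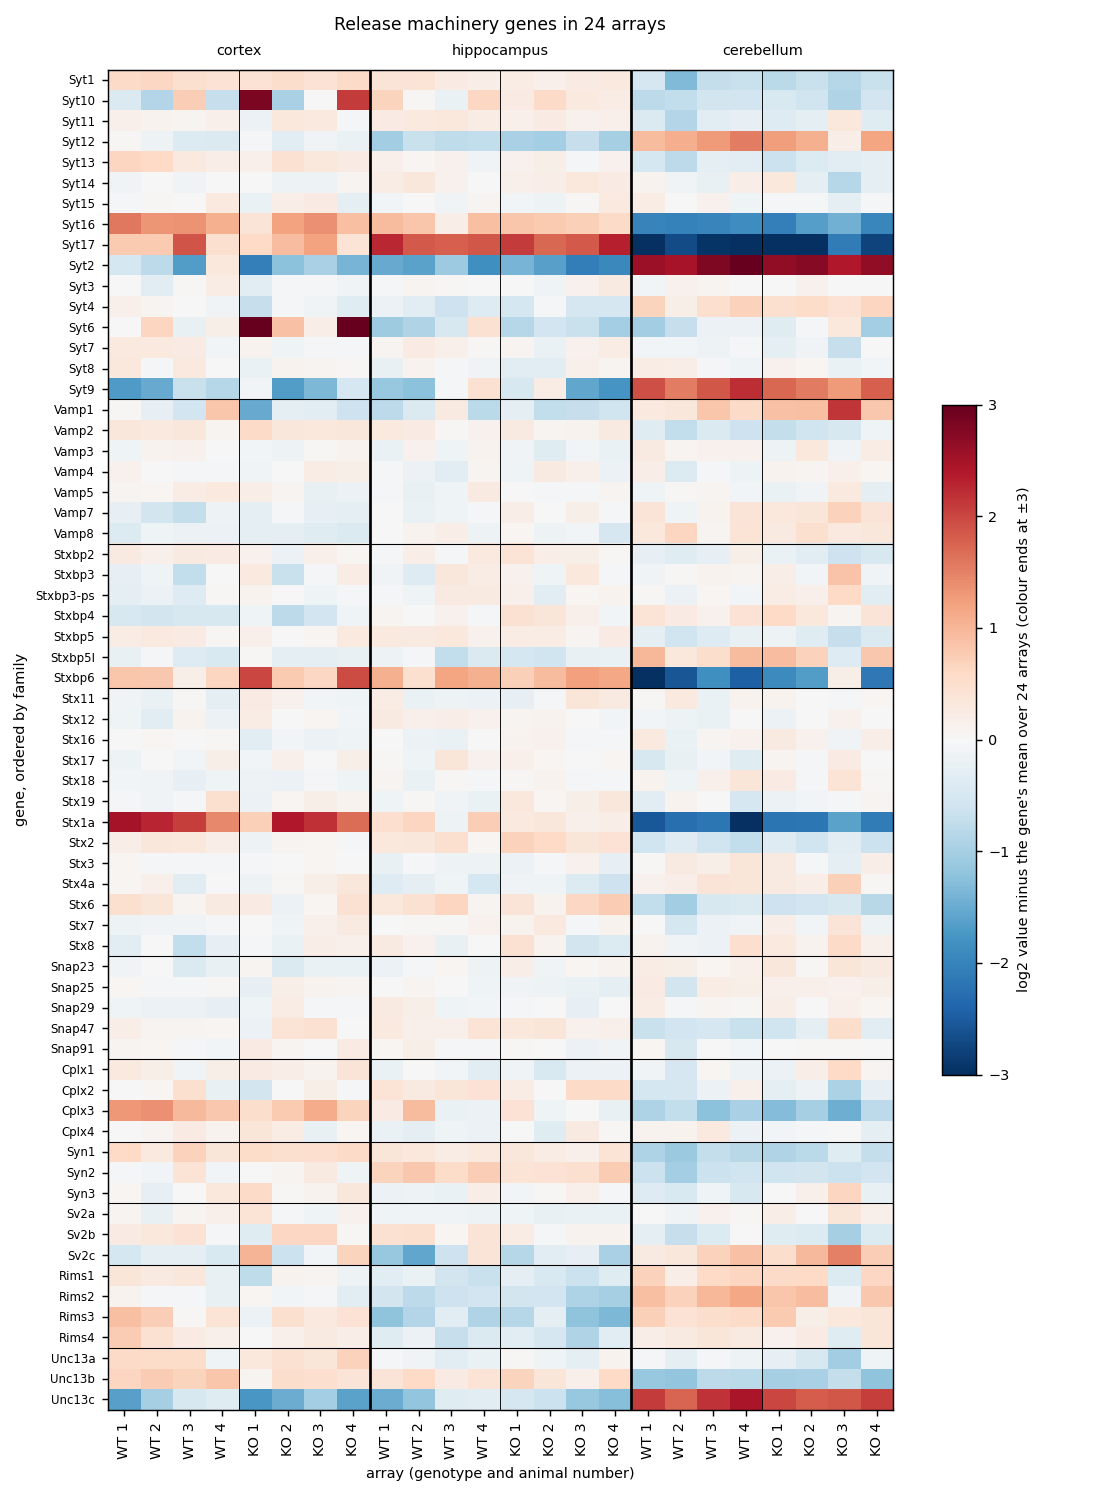
Each row is 1 of the 65 genes and each column 1 of the 24 arrays; colour gives the log2 value minus the gene's mean over all arrays, with the scale ending at 3 on either side. Syt2, Syt9, Syt12 and Unc13c are red in all 8 cerebellum arrays except Syt12 in KO 3, which is pale, while Stx1a, Syt16 and Syt17 are blue in the cerebellum, and Syt6 and Syt10 are dark red in cortex KO 1 and KO 4.

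In WT mice the cerebellum was set apart from the cortex by some genes that were far higher and others that were far lower. Syt2, Syt9, Syt12 and the Munc13 gene Unc13c were 2.74-fold to 10.6-fold higher in the cerebellum, while Stx1a, Syt17, Syt16, Stxbp6, Cplx3, Unc13b, Syn1 and Syt1 were 2.52-fold to 23.6-fold lower. With a threshold of adjusted p 0.05 and a difference of at least 2-fold, 4 of 65 members were thus higher (6.15%, against 4.51% of all rows) and 8 lower (12.3%, against 5.47%). Without the fold minimum 31 of 65 passed (47.7%, against 35.8% of all rows), 12 higher and 19 lower. The median difference of the 65 genes was -0.07, and that of all rows -0.02. These shares describe the list and were not tested.

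Among the calcium sensors, Syt1 was lower and Syt2 higher in the cerebellum. Syt2, the fast sensor known from hindbrain and neuromuscular synapses, read 13.71, 13.61, 13.94 and 14.26 in the 4 WT cerebella, 10.62, 10.36, 9.46 and 11.46 in the cortices and 9.62, 9.54, 10.05 and 9.29 in the hippocampi. All cerebellum arrays lay above every forebrain array, and the cortex values were the most scattered, with WT 4 the highest and WT 3 the lowest. The difference from cortex was 3.41 ± 0.28 (SE, adjusted p = 2.32e-10), which is 10.6-fold. Syt1, the main sensor of forebrain terminals, read 17.29, 16.46, 17.07 and 17.12 in the cerebellum, 18.37, 18.41, 18.27 and 18.23 in the cortex and 18.18, 18.20, 18.04 and 17.98 in the hippocampus. Every cerebellum array was below every forebrain array, WT 2 furthest, and the difference from cortex was -1.33 ± 0.12 (SE, adjusted p = 2.26e-09). Syt9, which belongs to the same class of fast sensors, read 12.36, 11.96, 12.28 and 12.64 in the cerebellum and 8.71, 8.91, 9.76 and 9.58 in the cortex. The groups did not overlap and differed by 3.07 ± 0.39 (SE, adjusted p = 4.76e-07). Syt7, a slow high-affinity sensor, differed by -0.29 ± 0.13 (SE, adjusted p = 0.0847) and did not pass. Syt12, a synaptotagmin that does not bind calcium, was higher in the cerebellum by 1.46 ± 0.17 (SE, adjusted p = 1.62e-07).

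The 2 synaptotagmins with the largest deficit in the cerebellum were Syt17 and Syt16, both of which lack calcium binding. Syt17 read 8.05, 8.51, 8.24 and 8.17 in the WT cerebellum against 11.98, 11.99, 13.09 and 11.68 in the cortex and 13.45, 13.03, 13.00 and 13.05 in the hippocampus. The cerebellum was lowest without overlap, cortex WT 3 lay as high as the hippocampus, and the difference from cortex was -3.94 ± 0.24 (SE, adjusted p = 1.27e-12), or 15.4-fold. Syt16 differed by -3.29 ± 0.18 (SE, adjusted p = 1.52e-13). Of the 16 synaptotagmins, 9 passed the adjusted threshold (56.3%, against 35.8% of all rows), 4 higher and 5 lower. Syt4 was higher by 0.48, and Syt13 and Syt11 had differences of -0.91 and -0.60. The other 7, Syt3, Syt6, Syt7, Syt8, Syt10, Syt14 and Syt15, did not pass, with values from -0.67 to 0.05.

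Of the SNAREs that form the fusion complex, the target SNARE Stx1a had the largest difference of all 65 members between cerebellum and cortex. Its values were 13.03, 12.82, 12.62 and 11.98 in the WT cortex, 11.05, 11.19, 10.38 and 11.28 in hippocampus and 8.003, 8.28, 8.37 and 7.54 in cerebellum. The 3 regions formed 3 separate steps with no overlap, cortex highest and cerebellum lowest. The cerebellum differed from cortex by -4.56 ± 0.27 (SE, adjusted p = 8.80e-13), which is 23.6-fold. Snap25, the partner of Stx1a, read 17.60, 17.50, 17.48 and 17.57 in the cortex and 17.79, 16.999, 17.76 and 17.72 in the cerebellum. Apart from WT 2 the cerebellum arrays were slightly above cortex, and the difference was 0.03 ± 0.13 (SE, adjusted p = 0.887), with a 95% interval of -0.23 to 0.30. After quantile normalization between arrays the Snap25 difference was 0.31 (adjusted p = 0.0037), so its call depended on the scaling. Vamp2, the main vesicle SNARE of the forebrain, read 15.82, 15.77, 15.80 and 15.56 in the cortex and 15.12, 14.73, 15.05 and 14.84 in the cerebellum, where all 4 arrays were lower, with a difference of -0.80 ± 0.12 (SE, adjusted p = 4.32e-06). Vamp1, its paralog, read 15.24, 14.95, 14.62 and 16.03 in the cortex and 15.49, 15.55, 16.03 and 15.77 in the cerebellum. Cortex WT 4 was as high as the highest cerebellum, the groups overlapped, and the difference of 0.50 ± 0.30 (SE, adjusted p = 0.227) did not pass.

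Other SNAREs differed less, by under 2-fold. Vamp7 and Vamp8, vesicle SNAREs of lysosomal and endosomal traffic, were higher in the cerebellum by 0.61 and 0.59. Snap23, the relative of Snap25 found in most tissues, was higher by 0.35. Snap47, a SNAP protein of broad distribution, was lower, with a difference of -0.71 ± 0.16 (SE, adjusted p = 0.00111). The Golgi syntaxin Stx6 and the plasma membrane syntaxin Stx2 had differences of -0.97 and -0.83 and also passed. In all, 3 of 13 syntaxins passed, each lower in the cerebellum, 3 of 7 Vamp genes passed, 2 of them higher, and 2 of 5 Snap genes passed, 1 of them higher. These are 23.1%, 42.9% and 40% of the families, against 35.8% of all rows.

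Syntaxin-binding proteins differed in both directions. Stxbp6, known as amisyn, a brake on SNARE assembly, read 12.87, 12.84, 12.20 and 12.68 in the WT cortex, 13.11, 12.50, 13.22 and 13.11 in hippocampus and 8.74, 9.46, 10.19 and 9.58 in cerebellum. The cerebellum was lower in all arrays but also the most scattered, and the difference from cortex was -3.15 ± 0.38 (SE, adjusted p = 1.75e-07), or 8.9-fold. The tomosyn gene Stxbp5, another brake, was lower, with a difference of -0.57, whereas its paralog Stxbp5l was higher by 0.99 ± 0.21 (SE, adjusted p = 0.000482). Stxbp4 was higher by 0.81 and the Munc18 relative Stxbp2 had a difference of -0.41. In all, 5 of 7 genes passed (71.4%, against 35.8% of all rows), 2 higher and 3 lower. Stxbp3 and Stxbp3-ps did not pass.

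Complexins and vesicle proteins included 1 complexin, 2 synapsins and 1 SV2 gene that were lower in the cerebellum. In either direction 25%, 66.7% and 66.7% of these families passed, against 35.8% of all rows. Cplx3, a complexin of retinal ribbon synapses and of deep cortical neurons, read 10.60, 10.67, 10.26 and 10.10 in the WT cortex, 9.53, 10.23, 9.09 and 9.13 in hippocampus and 8.36, 8.56, 8.06 and 8.32 in cerebellum. The cerebellum lay below the others without overlap, the hippocampus lay between and reached the cortex values through WT 2, and the difference from cortex was -2.08 ± 0.21 (SE, adjusted p = 8.34e-09). Cplx1, Cplx2 and Cplx4 had differences of -0.31, -0.34 and -0.04 and did not pass. Syn1 read 15.94, 15.66, 16.06 and 15.73 in the cortex, 15.72, 15.68, 15.59 and 15.65 in hippocampus and 14.42, 14.26, 14.65 and 14.52 in cerebellum, where every array was lower, with a difference of -1.39 ± 0.11 (SE, adjusted p = 3.00e-10). Syn2 read 15.11, 15.05, 15.56 and 15.05 in the cortex, then 15.81, 15.94, 15.68 and 15.88 for hippocampus, then 14.50, 14.11, 14.50 and 14.55 for cerebellum, so the hippocampus was highest and the cerebellum lowest. The Syn2 difference between cerebellum and cortex was -0.78 ± 0.12 (SE, adjusted p = 1.28e-05), and that of Syn3 was -0.39 ± 0.16 (SE, adjusted p = 0.0552), just short of the threshold, which it passed after quantile normalization (-0.42, adjusted p = 0.0362). Of the SV2 glycoproteins, Sv2b had a difference of -0.58 ± 0.19 (SE, adjusted p = 0.0168) and Sv2c, the form of basal ganglia and hindbrain, of 0.93 ± 0.32 (SE, adjusted p = 0.0252), while Sv2a, the most widespread form, had a difference of -0.01 and did not pass. The Sv2b call was lost without cortex WT 3 (-0.51, adjusted p = 0.0578) or cerebellum WT 2 (-0.46, adjusted p = 0.0746), and the Sv2c call without cortex WT 1, cortex WT 4, cerebellum WT 3 or cerebellum WT 4 (0.82 to 0.91, adjusted p = 0.0532 to 0.0826).

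At the active zone, the Munc13 genes showed 3 different patterns. Unc13c, the Munc13 form known from cerebellar granule cells, read 13.17, 12.82, 13.24 and 13.53 in the WT cerebellum, 9.45, 10.07, 10.59 and 10.72 in the cortex and 9.57, 9.90, 10.71 and 10.74 in the hippocampus. The cerebellum arrays were all higher and closer together than those of the forebrain, and the difference from cortex was 2.98 ± 0.26 (SE, adjusted p = 6.05e-10), or 7.91-fold. Unc13b read 8.49, 8.46, 8.86 and 8.83 in the cerebellum and 10.28, 10.41, 10.30 and 10.47 in the cortex, with no overlap and a difference of -1.70 ± 0.13 (SE, adjusted p = 1.27e-10). Unc13a, the form needed at most forebrain synapses, differed by -0.52 ± 0.16 (SE, adjusted p = 0.0126), with overlap, since cortex WT 4 (12.14) lay among the cerebellum values. Of the RIM genes, Rims2 was higher in the cerebellum by 0.99 ± 0.17 (SE, adjusted p = 2.96e-05), just under 2-fold, while Rims1, Rims3 and Rims4 had differences of 0.35, 0.03 and -0.13 and did not pass.

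**Figure D2:**
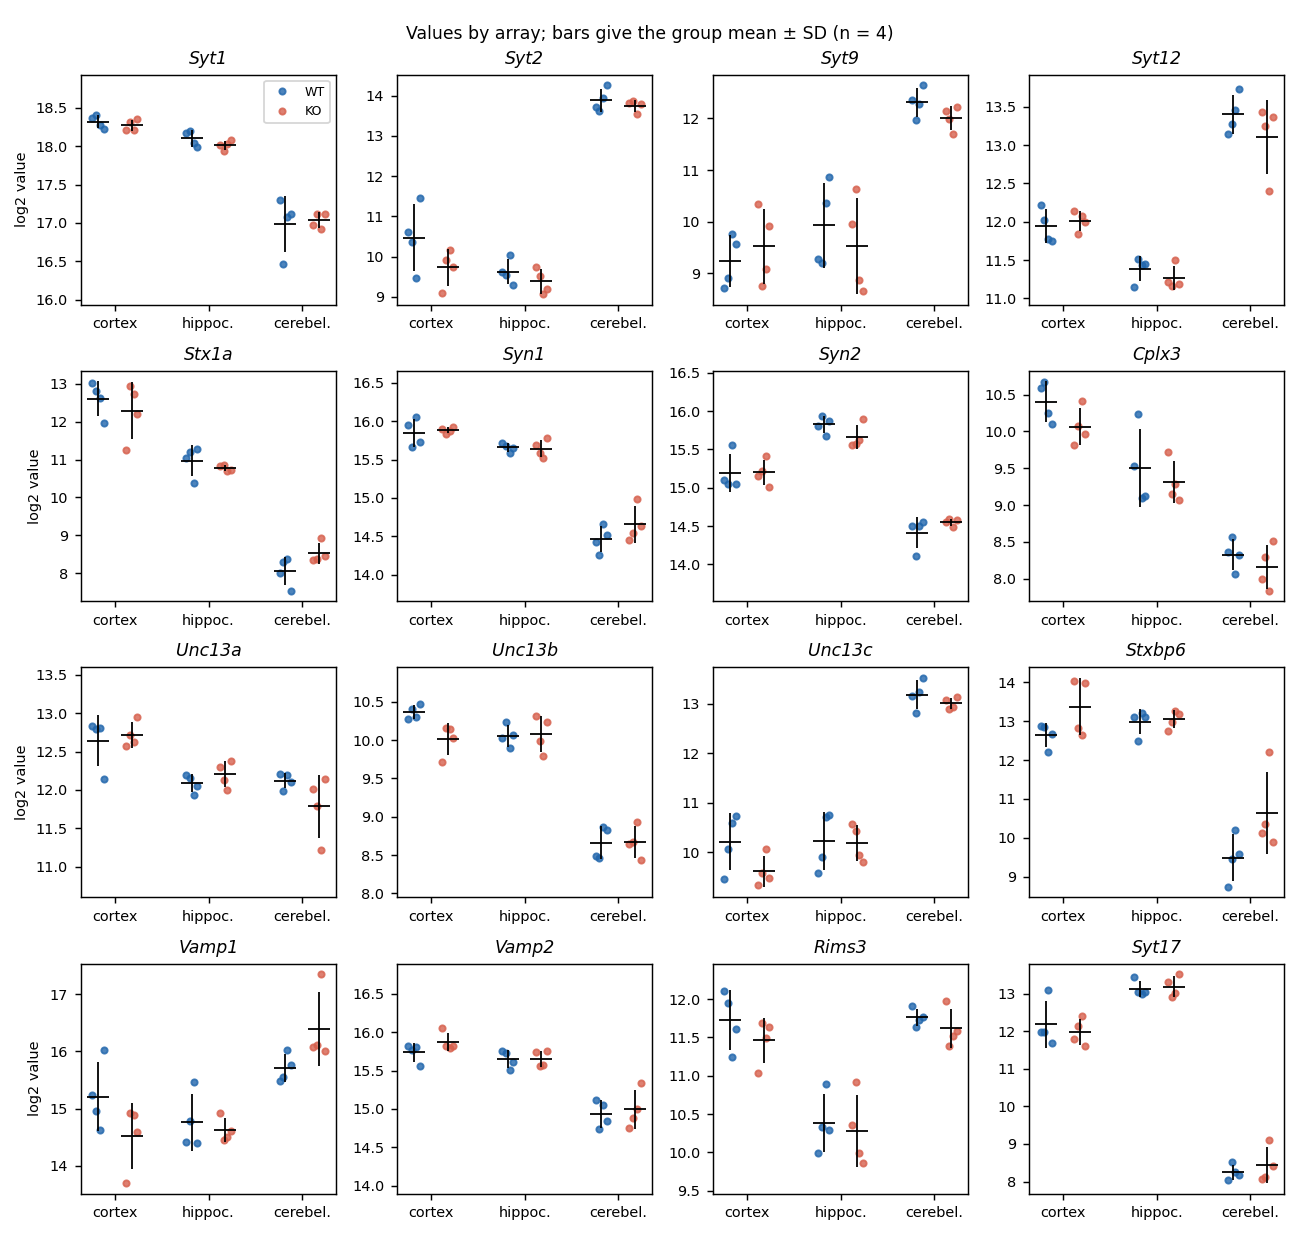
Each panel is 1 gene; points are the log2 values of single arrays by region, WT in blue and KO in red, and bars give the group mean and standard deviation (n = 4). In both genotypes Syt2, Syt9 and Unc13c lie highest in the cerebellum and Stx1a, Syn1, Cplx3 and Syt17 lowest; the vertical axes differ between panels.

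Against the hippocampus the cerebellum differed at more of these genes. At least 2-fold, 8 of 65 members were higher (12.3%, against 3.98% of all rows) and 10 lower (15.4%, against 5.85%), and 35 of 65 passed without the fold minimum (53.8%, against 34.9%). The cerebellum arrays are the same as in the comparison with cortex, so the 2 comparisons are not independent, and their values are given side by side. Syt2 was higher by 4.26 ± 0.28 (SE, adjusted p = 3.86e-12), Unc13c by 2.96, Syt9 by 2.38 and Syt12 by 2.01, while against cortex these were 3.41, 2.98, 3.07 and 1.46. Syt17 had the largest deficit, -4.89 ± 0.24 (SE, adjusted p = 2.56e-14), or 29.6-fold, followed by Stxbp6 at -3.49, Stx1a at -2.92 and Syt16 at -2.68. Unc13b, Syn1, Cplx3 and Syt1 were lower as well, with differences of -1.39, -1.197, -1.17 and -1.12.

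The RIM family passed whole in this comparison (100%, against 34.9% of all rows): each of the 4 genes was higher in the cerebellum. Rims2 was higher by 1.57 ± 0.17 (SE, adjusted p = 2.92e-08) and Rims3, a short RIM form, by 1.38 ± 0.21 (SE, adjusted p = 9.85e-06). Rims3 read 9.99, 10.33, 10.89 and 10.30 in the WT hippocampus, 11.91, 11.64, 11.73 and 11.77 in the cerebellum and 12.11, 11.95, 11.24 and 11.61 in the cortex. The hippocampus was thus below both other regions, and cortex and cerebellum overlapped. Rims1 was higher by 0.97 and Rims4 by 0.69. Stxbp5l (1.06) and Sv2c (1.27) were also more than 2-fold higher, and Syn2 (-1.41) and Stx6 (-1.05) more than 2-fold lower. Some 2-fold calls fell below 2-fold when 1 array was left out. Stxbp5l did so without hippocampus WT 3, cerebellum WT 1 or cerebellum WT 4, and Stx6 without hippocampus WT 3 or cerebellum WT 2. Sv2c and Cplx3 did so without hippocampus WT 2, and Syt1 without cerebellum WT 2. Rims1 and Vamp1 reached 2-fold in some leave-out fits. The Sv2c groups overlapped, because hippocampus WT 4 read 10.81 against 8.87 to 9.81 in the other 3. Vamp1 was higher by 0.95 ± 0.30 (SE, adjusted p = 0.016), a call lost without hippocampus WT 1, hippocampus WT 4 or cerebellum WT 3 (adjusted p = 0.0576, 0.0586 and 0.0536), and Vamp2 was lower, at -0.71. Cplx2 was lower (-0.63 ± 0.19 SE, adjusted p = 0.00971), Sv2b too (-0.69), and Cplx1, Cplx4, Syn3, Sv2a, Syt7, Unc13a and Snap25 did not pass (-0.28 to 0.27). Snap25 was called after quantile normalization (0.40, adjusted p = 2.48e-04).

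Hippocampus and cortex were separated by fewer of these genes than either was from the cerebellum. In WT, 2 of 65 members were at least 2-fold lower in the hippocampus (3.08%, against 0.618% of all rows), Stx1a and Rims3, and 0 were at least 2-fold higher (0.746% of all rows). Stx1a differed by -1.64 ± 0.27 (SE, adjusted p = 0.000306) and Rims3 by -1.35 ± 0.21 (SE, adjusted p = 0.000175). Below 2-fold, 10 further members passed, for 12 of 65 in all (18.5%, against 7.09%), 4 of them higher and 8 lower in the hippocampus. The higher ones were Syt17 (0.95), Syn2 (0.64), Stxbp4 (0.54) and the endosomal syntaxin Stx12 (0.32). Besides Rims3, Rims4 (-0.82) and Rims2 (-0.58) were lower, and so were Cplx3 (-0.91), Syt16 (-0.61), Syt12 (-0.56) and Unc13a (-0.56). Several of these calls were not stable: Stx12, Rims2, Unc13a and Syt17 each lost the threshold when 1 array was left out, for 4 or more choices of that array. Their adjusted p then reached up to 0.174, 0.106, 0.115 and 0.0653. Stx12 lost it also without arrays of neither group, its difference unchanged, as without cortex KO 3 (0.32, adjusted p = 0.0594). Without cortex WT 3, Syt17 and Syt2 (-1.19, adjusted p = 0.00276) joined the 2-fold calls, which then numbered 4. With all arrays Syt2 had a difference of -0.85 ± 0.28 (SE, adjusted p = 0.0625). Rims1 had a difference of -0.62 ± 0.20 (SE, adjusted p = 0.0641) and passed after quantile normalization (-0.68, adjusted p = 0.033) or without cortex WT 4 (-0.76, adjusted p = 0.0325). The genes Syt1, Syn1, Snap25, Vamp1, Vamp2, Sv2a, Sv2b, Sv2c, Unc13b and Unc13c did not pass.

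The 4 KO animals share no array with the WT animals, so the same regional comparisons in KO repeat the group means in other mice. The p-values of both genotypes came from 1 fit with a shared spread per gene, so their calls are not independent. All 12 genes called at least 2-fold between cerebellum and cortex in WT were called in KO too, in the same direction, and they were 80% of the 15 calls in KO, 5 higher (7.69%, against 3.63% of all rows) and 10 lower (15.4%, against 4.58%). Syt2 differed by 4.02 ± 0.28 (SE, adjusted p = 1.73e-11), Unc13c by 3.40 ± 0.26 (SE, adjusted p = 8.47e-11), Syt9 by 2.49 and Syt12 by 1.10. Stx1a differed by -3.76 ± 0.27 (SE, adjusted p = 4.72e-11), Syt17 by -3.55, Syt16 by -2.75, Stxbp6 by -2.73 and Syn1 by -1.23. The 3 further calls in KO were Vamp1 (1.87), Syt6 (-2.21) and Syt10 (-1.62). Without cortex KO 1 and KO 4 the calls on Syt6 and Syt10 were gone and Stxbp4, Sv2b and Sv2c were called instead, 16 in all. Between cerebellum and hippocampus 15 genes were called in both genotypes, 83.3% of the 18 in WT and 88.2% of the 17 in KO, where 8 were higher (12.3%, against 3.49%) and 9 lower (13.8%, against 4.63%). Stxbp5l, Syn1 and Syt1 were called in WT alone, and Stx2 and Vamp1 in KO alone, but all 18 WT calls kept their direction in KO. The WT calls on Stxbp5l and Syt1 were themselves lost in leave-out fits, as given above. Stx2 lost its KO call without hippocampus KO 1, hippocampus KO 2, cerebellum KO 2 or cerebellum KO 4. Without cerebellum KO 3, Rims1, Stxbp5l and Syn1 joined the KO calls, which then numbered 20. Between hippocampus and cortex Stx1a (-1.50) and Rims3 (-1.18) were called again, with Syt17 (1.21) and Syt6 (-2.72), so that 1 was higher (1.54%, against 0.955%) and 3 lower (4.62%, against 0.899%). Without cortex KO 1 and KO 4 the count was 3, since Syt17 was lost. Whether a difference between regions itself differed by genotype is the interaction reported with the genotype comparisons.

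**Figure D3:**
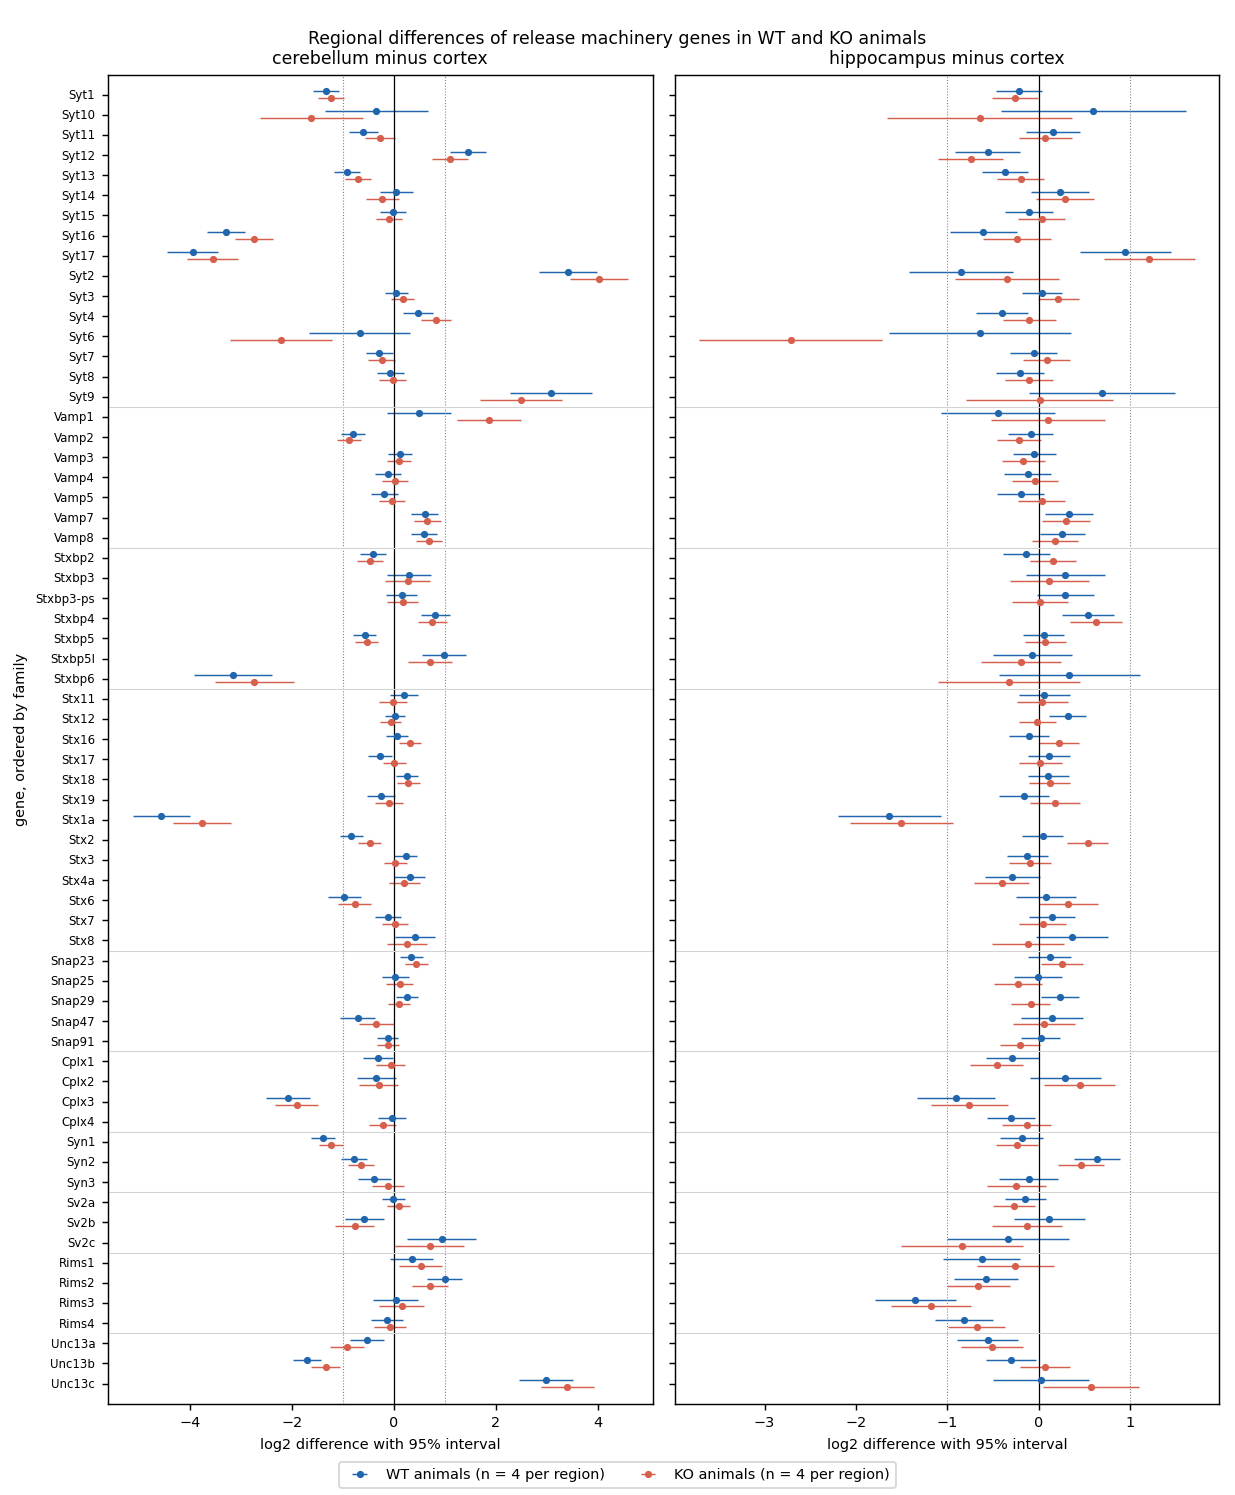
Points are the log2 differences of all 65 genes between cerebellum and cortex (left) and hippocampus and cortex (right), WT in blue and KO in red, with 95% intervals of the fit and dotted lines at a 2-fold difference; positive values are higher in the region named before the minus. WT and KO points fall close together for most genes (Syt2 3.41 and 4.02, Stx1a -4.56 and -3.76), while those of Syt6 and Syt10 are wide apart.

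Paralogs were also compared within each array, as the difference of 2 log2 values of the same animal, which cancels any shift common to both genes of an array. There were 14 pairs. With 4 against 4 arrays the exact 2-sided permutation test cannot go below 0.0286. Over the 3 WT region comparisons, 20 of 42 ratios did not overlap between regions and reached that bound, but after adjustment over the 42 the smallest p was 0.06 and 0 passed. In KO, 21 of 42 did not overlap and the smallest adjusted p was 0.0571. Of all single rows in WT, 33.7% did not overlap between cerebellum and cortex. The shares were 35.7% between cerebellum and hippocampus and 15.9% between hippocampus and cortex. With both genotypes together, 8 against 8 arrays permuted within genotype, the smallest exact p possible was 0.000408 and 29 of 42 passed at an adjusted p of 0.05, all with the same sign in WT and KO. That joint test was added after the data were seen. It averages the differences of both genotypes, so pairs of opposite sign could hardly pass. The shared sign among the passing pairs is therefore no separate evidence of agreement. Ratios of other gene pairs were not counted, so whether these numbers are particular to paralogs was not tested. The ratio of Syt2 to Syt1 was higher in the cerebellum than in cortex by 4.74 in WT and 5.26 in KO, and that of Syt9 to Syt1 by 4.41 and 3.73. Unc13c against Unc13a differed by 3.51 and 4.33, and Unc13b against Unc13a by -1.18 and -0.41. Vamp1 against Vamp2 differed by 1.30 and 2.74, Cplx3 against Cplx2 by -1.74 and -1.61, and Sv2c against Sv2b by 1.51 and 1.47. The adjusted exact p in the joint test was 0.00114 for Syt2, Syt9, Unc13c and Cplx3, 0.0018 for Vamp1, 0.00257 for Sv2c and 0.00745 for Unc13b. Ratios that did not pass between cerebellum and cortex were Cplx1 to Cplx2 (0.03 and 0.23), Rims3 to Rims1 (-0.31 and -0.37) and Snap23 to Snap25 (0.31 and 0.32). Between hippocampus and cortex the synapsins parted: Syn1 against Syn2 differed by -0.82 and -0.70 and Syn3 against Syn2 by -0.75 and -0.70 (adjusted exact p = 0.00114 for both in the joint test).

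Other genes of the vesicle cycle, 45 measured genes outside the 65, were compared for the same regions. Between cerebellum and cortex 18 of 45 were called at least 2-fold, 8 higher and 10 lower (17.8% and 22.2%, against 4.51% and 5.47% of all rows). Among active zone scaffolds, Erc1 was higher in the cerebellum by 2.53 ± 0.20 (SE, adjusted p = 2.20e-10) and its paralog Erc2 lower, with a difference of -2.25 ± 0.12 (SE, adjusted p = 1.95e-13). The RIM-binding protein gene Rimbp2 had the largest deficit, -3.51 ± 0.19 (SE, adjusted p = 1.91e-13), and the small GTPase gene Rab3b a difference of -2.45. Cadps2, a priming factor of dense-core vesicles, was higher by 2.34 and the liprin gene Ppfia4 by 2.08. Against the hippocampus 16 of 45 were called, 6 higher and 10 lower (13.3% and 22.2%, against 3.98% and 5.85% of all rows), with Cadps2 (2.70), Erc1 (2.45) and Cacna1a (2.00), the pore of the P/Q-type calcium channel, highest, and Rimbp2 (-3.19), Rab3b (-2.45) and Erc2 (-2.30) lowest. Hippocampus and cortex differed at least 2-fold at 2 of 45, both higher in the hippocampus (4.44%, against 0.746% of all rows), Doc2b, a calcium sensor of spontaneous release (1.87 ± 0.27 SE, adjusted p = 5.80e-05), and the liprin gene Ppfia2 (1.07 ± 0.17 SE, adjusted p = 0.000169). Sh3gl2, the endophilin of vesicle recycling, was higher in the hippocampus by 0.62, and Doc2a and the synaptogyrin gene Syngr1 were lower, with differences of -0.68 and -0.35.

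The genotype comparison asked whether loss of the hepatic enzyme altered these genes in the brain, and no member passed in any region. With limma and adjustment over all rows, 0 of 65 were called in the cortex (0% of all rows), 0 for hippocampus (0%), 0 for cerebellum (0%), 0 for the mean over regions (0%) and 0 for the difference of the genotype effect between regions (0%). At an unadjusted p of 0.05 the counts were 8 in the cortex (12.3%, against 7.45% of all rows), 1 in the hippocampus (1.54%, against 2.11%) and 8 in the cerebellum (12.3%, against 9.5%), and limma was the only tool run. The median KO minus WT difference of the members was -0.004 in the cortex, -0.02 in hippocampus and 0.05 in cerebellum, and that of all rows was -0.01, 0.01 and -0.004. For 4 core genes the 95% intervals in the cortex were -0.22 to 0.31 for Snap25, -0.30 to 0.21 for Syt1, -0.11 to 0.38 for Vamp2 and -0.20 to 0.27 for Syn1, while those of Syt2, Vamp1, Unc13b and Unc13c lay below 0. In the hippocampus the same limits were -0.44 to 0.09, -0.34 to 0.16, -0.24 to 0.25 and -0.25 to 0.22, and in the cerebellum -0.14 to 0.39, -0.21 to 0.30, -0.19 to 0.30 and -0.04 to 0.43. A p above the threshold does not show that the genotypes were alike.

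In the cortex the largest differences belonged to Syt6 and Syt10, and both rested on the 2 arrays with olfactory bulb genes. Syt6, a synaptotagmin of the plasma membrane, read 9.32, 9.96, 9.08 and 9.48 in WT and 12.78, 10.18, 9.51 and 12.50 in KO. KO 1 and KO 4 were more than 2 units above all other cortex arrays, while KO 2 and KO 3 lay near WT. The difference was 1.78 ± 0.49 (SE, unadjusted p = 0.00116, adjusted p = 0.391), and without KO 1 and KO 4 it was 0.39 (adjusted p = 0.999). Syt10, known from olfactory bulb neurons, read 11.25, 10.78, 12.41 and 10.98 in WT and 14.50, 10.69, 11.67 and 13.76 in KO, again with KO 1 and KO 4 highest. Its difference of 1.30 ± 0.49 (SE, unadjusted p = 0.0141, adjusted p = 0.587) was -0.18 without them. In contrast, leaving out cortex KO 2 took Syt10 past the threshold (1.96, adjusted p = 0.0419), and leaving out KO 3 did so for Syt6 (2.36, adjusted p = 0.0247). In those fits 55 and 34 of all rows were called, against 0 with all arrays. The same 2 arrays were the highest pair for 9 of 65 members (13.8%, against 10.6% of all rows): Snap91, Stxbp3, Stxbp4, Stxbp6, Sv2c, Syn3, Syt10, Syt6 and Syt9.

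The 6 genes lower in the KO cortex at an unadjusted p under 0.05 had smaller differences, and the same 2 arrays touched them too: cortex KO 1 and KO 4 were the lowest pair for 9 of 65 members (13.8%, against 7.82% of all rows), among them Unc13b, Stx2, Syt4 and Vamp1. Syt2 read 9.09, 9.92, 10.17 and 9.75 in KO against 10.62, 10.36, 9.46 and 11.46 in WT, with overlap and a difference of -0.74 ± 0.28 (SE, unadjusted p = 0.0129, adjusted p = 0.577). Unc13b read 9.71, 10.16, 10.15 and 10.03 in KO and 10.28, 10.41, 10.30 and 10.47 in WT, and Stx2 read 10.76, 11.00, 10.98 and 10.87 and 11.11, 11.24, 11.22 and 11.10. For these genes all 4 KO arrays were below all WT arrays, with differences of -0.35 ± 0.13 (SE, unadjusted p = 0.0142, adjusted p = 0.587) and -0.27 ± 0.11 (SE, unadjusted p = 0.0221, adjusted p = 0.602). With Stx16, 3 of 65 members had no overlap between the genotypes in the cortex (4.62%, against 3.68% of all rows). Without KO 1 and KO 4 the differences of Syt2, Unc13b and Stx2 were -0.43, -0.21 and -0.18, each with an adjusted p of 0.999, and 2 members in place of 8 had an unadjusted p under 0.05 (3.54% of all rows). The part of the bulb genes in these values was not tested. Vamp1 (-0.69), Unc13c (-0.59) and Syt4 (-0.33) were the others at an unadjusted p under 0.05.

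In the hippocampus the differences were the smallest of the 3 regions, with a median size of 0.10 over the members. The genotypes did not overlap for 2 of 65 members, Stx19 and Stx12 (3.08%, against 2.17% of all rows). The smallest p was that of Stx19, a dim syntaxin of epithelia, which read 6.27, 6.43, 6.31 and 6.22 in WT and 6.71, 6.47, 6.58 and 6.75 in KO. All KO arrays were above all WT arrays, by 0.32 ± 0.13 (SE, unadjusted p = 0.0252, adjusted p = 1), but the level was among the lowest of the array. Stx2 (0.22), Stx12 (-0.16), Vamp8 (-0.19) and Vamp3 (-0.17), all of them SNAREs outside the core fusion complex, came next, each with an adjusted p of 1.00. Among other vesicle genes the smallest p-values were those of Napb (-0.30), which encodes a SNAP cofactor of SNARE disassembly, and Syngr1 (-0.21), also with an adjusted p of 1.00. Choroid plexus genes were highest in hippocampus KO 1 for 10 of 10 markers, with list means of 8.61 to 12.15 in KO and 9.07 to 10.96 in WT, and their part was not tested.

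In the cerebellum all 8 members with an unadjusted p under 0.05 were higher in KO: Syn3, Stx17, Stxbp6, Snap47, Cplx1, Stx7, Vamp1 and Syt11. KO 3, the array with brainstem genes, held the highest of the 8 values for every one of them. Stxbp6 read 8.74, 9.46, 10.19 and 9.58 in WT and 10.12, 10.36, 12.20 and 9.89 in KO, so KO 3 lay far above the rest while the other KO arrays overlapped WT. The difference was 1.15 ± 0.38 (SE, unadjusted p = 0.00547, adjusted p = 0.435), and 0.63 without KO 3. Syn3 read 12.49, 12.41, 12.74 and 12.38 in WT and 12.87, 13.01, 13.51 and 12.64 in KO, a difference of 0.50 ± 0.16 (SE, unadjusted p = 0.00357, adjusted p = 0.435), or 0.34 without KO 3. Stx17, the syntaxin of autophagosomes, read 8.66, 8.92, 9.05 and 8.76 and 9.21, 9.08, 9.38 and 9.15, the only member whose groups did not overlap (1.54% of members, against 3.5% of all rows), and differed by 0.36 ± 0.11 (SE, unadjusted p = 0.00404, adjusted p = 0.435), or 0.30 without KO 3. Snap47 and Cplx1 had differences of 0.44 and 0.35 (adjusted p = 0.435 and 0.459), or 0.21 and 0.21 without KO 3. Without that array Stx17, Syn3 and Stxbp6 were the 3 members with an unadjusted p under 0.05 (0.0192, 0.029 and 0.0472 by limma), 3.52% of all rows had one, and 0 passed adjustment.

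KO 3 also held extreme values for many more members: the highest of the 8 cerebellum arrays for 26 of 65 (40%, against 23.8% of all rows) and the lowest for 20 (30.8%, against 27.9%). Vamp1 read 17.35 there and 15.49, 15.55, 16.03 and 15.77 in WT, and Rims1 read 14.57 there and 15.68, 15.17, 15.58 and 15.62 in WT. The other KO arrays read 16.08, 16.11 and 16.01 for Vamp1, above the WT median, and 15.55, 15.58 and 15.60 for Rims1, within the WT range. KO 3 had the highest value for 10 of 16 neuron markers and a granule cell mean of 12.43 against 13.61 to 14.07 in WT, and how far these markers account for its release genes was not tested. Among the other vesicle genes Slc17a6, the vesicular glutamate transporter of brainstem and thalamus, had the smallest p (1.81 ± 0.68 SE, unadjusted p = 0.0137, adjusted p = 0.435), followed by the scaffold gene Bsn (-0.38, adjusted p = 0.473). In the cortex the smallest were Ppfia2 (0.64 ± 0.17 SE, unadjusted p = 0.000946, adjusted p = 0.366) and Cacna1b, the N-type channel gene (-0.48, adjusted p = 0.403).

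**Figure D4:**
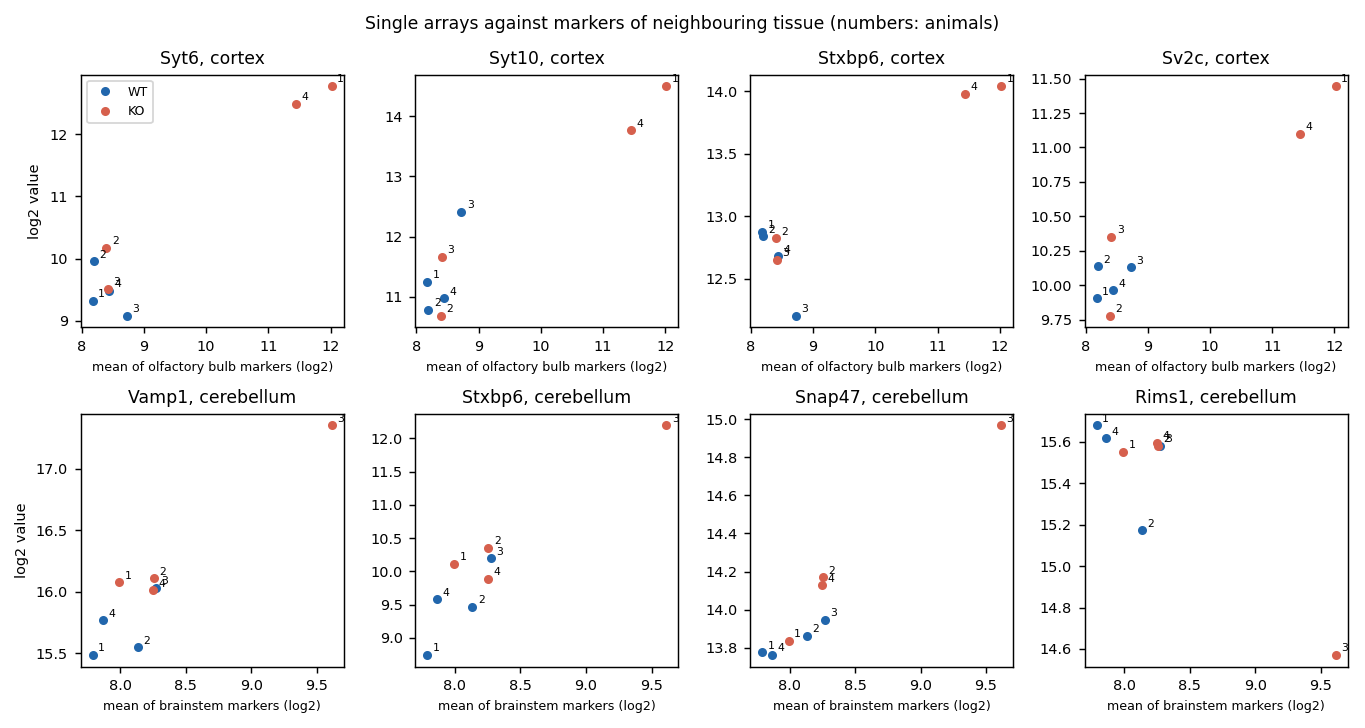
Each point is 1 array, WT blue and KO red with the animal's number; the horizontal axis is the mean log2 value of olfactory bulb markers in cortex arrays (top) or of brainstem markers in cerebellum arrays (bottom), the vertical axis the log2 value of the gene named. Cortex KO 1 and KO 4 stand alone at the upper right for Syt6, Syt10, Stxbp6 and Sv2c, as does cerebellum KO 3 for Vamp1, Stxbp6 and Snap47, while Rims1 is lowest there (14.57).

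Averaged over the regions, Syn3 (0.28 ± 0.09 SE, unadjusted p = 0.00539, adjusted p = 0.661) and Stxbp6 (0.64 ± 0.22 SE, unadjusted p = 0.007, adjusted p = 0.661) had the smallest p of the members, and 7 of 65 had an unadjusted p under 0.05 (10.8%, against 7.41% of all rows). For the difference of the genotype effect between regions the smallest unadjusted p were 0.0112 for Stx2, 0.0136 for Vamp1 and 0.0157 for Syt6, each with an adjusted p of 0.921. Stx2 had a KO minus WT difference of -0.27 in the cortex, 0.22 in hippocampus and 0.09 in cerebellum, and Vamp1 of -0.69, -0.14 and 0.68. Paralog ratios within arrays did not separate the genotypes: 0 of 42 were free of overlap, and the smallest adjusted exact p was 0.6.

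**Figure D5:**
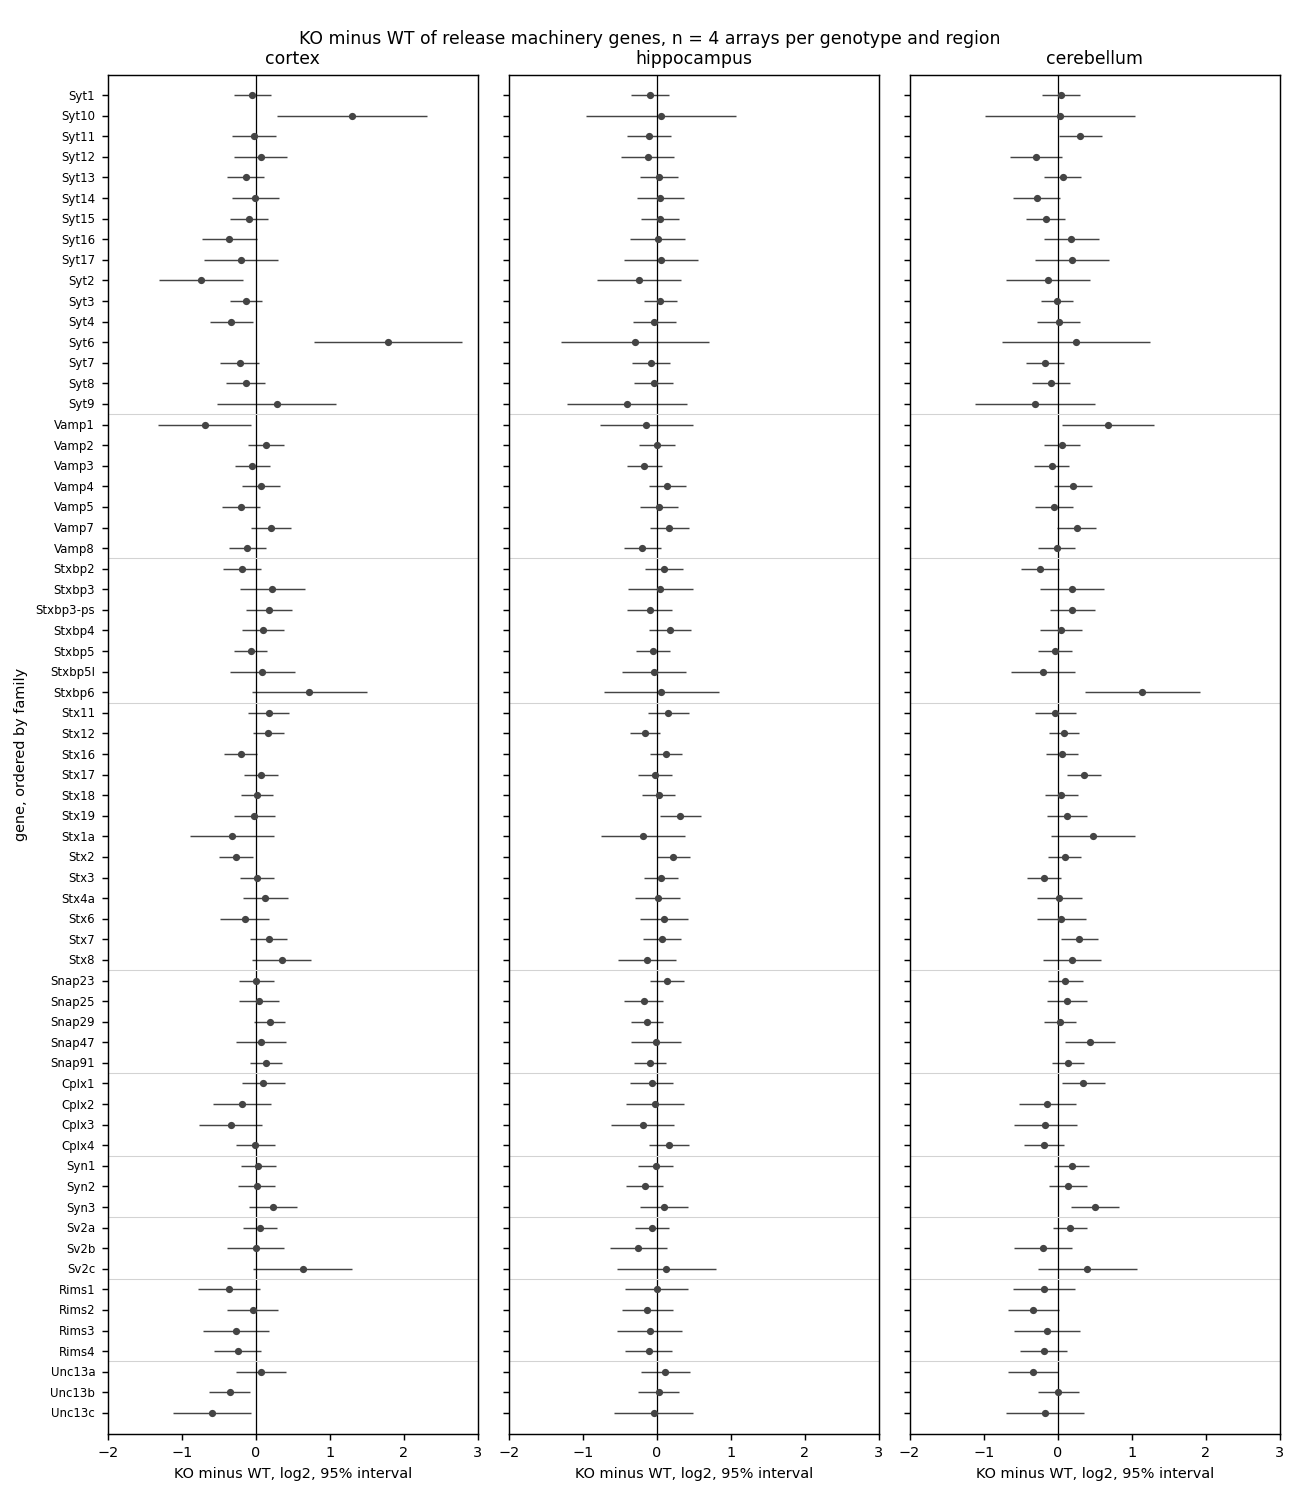
Points are KO minus WT differences of the 65 genes on the log2 scale in the 3 regions, with 95% intervals of the fit (n = 4 arrays per genotype and region). Most lie within 0.5 of 0, the cortex points of Syt6 (1.78) and Syt10 (1.30) and the cerebellum point of Stxbp6 (1.15) lie furthest to the right, and 0 of them passed adjustment.

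Of the members without a call between cerebellum and cortex, Stx3, Stx4a, Stx7, Stx8, Stx11, Stx16, Stx18, Snap29, Vamp3, Vamp4, Vamp5, Syt3, Syt8, Syt14 and Syt15, were at most 0.60 apart between any 2 regions in WT. Of these, Stx4a, a syntaxin of the plasma membrane outside synapses, was higher in the cerebellum than in the hippocampus by 0.60 (adjusted p = 0.00178), and Stx3 by 0.36 (adjusted p = 0.0132), while the others passed in no WT comparison. Stx11 and Stx19 had means below 7.07, the 25th percentile of all rows, and nothing is read from their levels.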

How the data were processed

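Total RNA of 24 brain samples was hybridised to mouse expression arrays with 1 array per sample, and the authors deposited log2 values per transcript cluster, made by RMA per the submitters' processing notes. Sources used here give neither an RMA version or setting nor a genome build. The labels name both a biotin and a Cy3 kit, so the labelling chemistry is not settled. Deposited values ran from 3.89 to 19.14, and 291 rows had a value above 16. The array medians over tested rows lay between 8.85 and 8.95, and the number of arrays limits the precision.

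Of 22206 rows, 19572 with 1 gene were tested and 2634 were not. Values were used as deposited. Limma 3.58.1 (R 4.3.3, statmod 1.5.0) fitted 6 group means over 24 arrays, with the animal as a random block (consensus correlation 0.00646) for regions, the mean over regions and the interaction, and without it for KO minus WT in a region. Leave-out fits kept that correlation. P-values were adjusted by Benjamini-Hochberg over all tested rows, and regional calls also needed 2-fold. Paralog ratios were tested by exact 2-sided permutation. The fit without a block was also run on simulated data with independent noise. Those data held no arrays that stood apart and did not try the random block, so nothing is concluded from them.

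The members and lists were chosen with earlier results of these data known. The genes named were 25 core genes, the 2 of largest difference per family among those called in each WT regional comparison, the 5 of smallest p in each genotype comparison, and from the other vesicle genes the 3 of largest difference called in each direction and the 2 of smallest p; further names were added after their values were seen. The labels name 4 animals per genotype and the same animals in all 3 regions, which is the source of the animal block, although arrays of an animal correlated above 0.1 in only 6 of 24 cases. The exact permutations did not use it. Same-numbered WT and KO arrays, which are different animals, did so in 2 of 12 cases and were not paired. Alternatives were quantile normalization, centring, the trend and robust options, no fold minimum, other blocks and leaving out arrays.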

Additional observations from a re-analysis of the deposited data

Results flagged for a closer look

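Of 228 sets of 4 arrays (38 named genes in 6 groups), 18 held a value whose gap to its neighbour exceeded Dixon's 95% critical share of the set's range, and chance alone flags about 1 in 20 such sets (5%). Cerebellum KO 3, the array with brainstem genes, gave 7 of them: Stx1a (8.94) and Vamp1 (17.35) were highest there, and Stxbp5l (13.85), Rims2 (12.61), Cplx2 (12.50), Sv2b (13.28) and Rims1 (14.57) lowest. Cerebellum WT 2 was lowest for Syn2 (14.11) and Snap25 (16.999).

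Cortex WT 4 was lowest for Syt7 (12.96), Rims1 (14.77) and Unc13a (12.14) and highest for Stx19 (6.87). Syn2 was highest in cortex WT 3 (15.56) and Vamp2 in cortex KO 1 (16.05). Among hippocampus arrays Syt17 was highest in WT 1 (13.45), Stxbp6 lowest in WT 2 (12.50) and Syn3 highest in WT 4 (13.06).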

How the results depend on the processing

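Without a fold minimum the calls in WT numbered 31 for cerebellum against cortex, 35 for cerebellum against hippocampus and 12 for hippocampus against cortex, and in KO 33, 36 and 12. With a replicate block, with none and with the animal as a fixed term the regional counts were 12, 18 and 2 in WT and 15, 17 and 4 in KO. The fit with the animal as a fixed term gave no genotype count, because genotype does not vary within an animal. In the other fits the counts were 0 for those genotype comparisons that each fit covered. Leaving out 1 array gave 12 to 15, 17 to 19 and 2 to 4 calls in WT, the last being 4 without cortex WT 3, and 14 to 16, 16 to 20 and 4 to 5 in KO. For KO against WT it gave 0 to 1 in the cortex (1 without cortex KO 2 and 1 without KO 3, where 55 and 34 of all rows were called) and 0 in hippocampus, cerebellum, their mean and the interaction. Paralog ratios past adjustment numbered 29 with both genotypes together and 0 in WT alone, where 4 arrays a group cannot give a smaller p. No value past the threshold changed sign under these settings, while values that did not pass could, as for Syt10 in the KO cortex (-0.18 to 1.96) or Snap25 between cerebellum and hippocampus (-0.04 to 0.40). For regional differences of named genes in WT, 57 values under another setting lost the adjusted p threshold, 32 gained it, 2 moved and 3326 did neither. These counts leave out the 2-fold minimum, which some members also lost, as given with the comparisons above. The cause of these changes was not tested. Values near the floor, as for Stx11 and Stx19, limit what can be read.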
